A study of Mus musculus with 8 samples.

Results

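The aryl hydrocarbon receptor (AhR) battery was examined in whole lungs of CC-LR mice as 9 genes chosen by name, out of 54532 genes counted. These were the P450 genes Cyp1a1, Cyp1a2 and Cyp1b1, the receptor Ahr, its dimerization partner Arnt, the repressors Ahrr and Tiparp, and the detoxifying enzyme genes Nqo1 and Aldh3a1. The battery was put forward because Cyp1a1 had stood out between control and TTI-101-treated lungs in these same libraries, so the difference between the groups is described for its members without a test. Of the 9 genes, 7 had enough counts to enter the model, and Cyp1a2 and Ahrr did not.

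CC-LR mice carry a loxP-stop-loxP K-ras G12D allele and a Cre recombinase at the club cell secretory protein (CCSP) locus, on a C57BL/6 background, and Cre activity in airway secretory cells removes the stop and allows the mutant K-ras to be made there. Lung tumors arise in this model without a carcinogen. Mice of both groups carried both alleles and were 14 weeks old. The 4 TTI-101 mice had been given this small-molecule inhibitor of STAT3 for 4 weeks, and the 4 control mice had not. The study dosed mice by intraperitoneal injection in DMSO or by oral gavage in Labrasol and polyethylene glycol. The sources used here do not state which of these the sequenced mice received, nor whether their controls received the vehicle. An effect of the drug and one of its vehicle therefore cannot be told apart. Poly(A) RNA of each lung gave 1 library per mouse, and the libraries held 16446481 to 26873509 (control) and 16075855 to 25920509 (TTI-101) counts.

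AhR is a transcription factor that waits in the cytosol in a complex with HSP90 chaperones until it binds a ligand, such as a dioxin, a polycyclic aromatic hydrocarbon, a plant indole or a tryptophan metabolite. It then enters the nucleus, pairs with ARNT and binds xenobiotic response elements, DNA sites with the core GCGTG. Cyp1a1 is its classical target and is known for low resting and strongly inducible expression in lung endothelium and epithelium, while AHRR and TIPARP are target genes whose products feed back on the receptor.

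The promoter windows of the genes taken as direct AhR targets are shown so that this core can be seen beside the expression values. They run from 250 bases before to 50 bases after the start of the RefSeq gene (GRCm38.p6), 5′ to 3′ on the strand of the gene, and capitals mark the core GCGTG or its reverse complement CACGC. Cyp1a1 lies at chr9:57697363-57697662 (plus strand), Cyp1a2 at chr9:57683606-57683905 (minus), Cyp1b1 at chr17:79715012-79715311 (minus), Ahrr at chr13:74292282-74292581 (minus) and Tiparp at chr3:65528197-65528496 (plus).
Cyp1a1: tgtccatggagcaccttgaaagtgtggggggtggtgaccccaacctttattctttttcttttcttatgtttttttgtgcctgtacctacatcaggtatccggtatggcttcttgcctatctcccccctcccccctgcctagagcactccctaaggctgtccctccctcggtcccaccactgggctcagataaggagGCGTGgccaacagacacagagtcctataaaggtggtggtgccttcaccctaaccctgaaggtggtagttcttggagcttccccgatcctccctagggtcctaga
Cyp1a2: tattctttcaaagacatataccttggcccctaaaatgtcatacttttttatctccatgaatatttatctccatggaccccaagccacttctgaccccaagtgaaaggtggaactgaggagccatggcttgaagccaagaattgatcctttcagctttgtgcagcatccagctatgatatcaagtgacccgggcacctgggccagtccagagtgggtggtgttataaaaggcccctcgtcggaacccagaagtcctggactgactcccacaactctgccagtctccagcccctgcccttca
Cyp1b1: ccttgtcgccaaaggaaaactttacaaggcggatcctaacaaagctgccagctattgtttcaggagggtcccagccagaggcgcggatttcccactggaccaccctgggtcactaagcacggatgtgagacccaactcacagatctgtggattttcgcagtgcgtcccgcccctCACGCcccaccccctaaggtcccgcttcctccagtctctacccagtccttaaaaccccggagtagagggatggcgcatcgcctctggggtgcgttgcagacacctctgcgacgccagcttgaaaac
Ahrr: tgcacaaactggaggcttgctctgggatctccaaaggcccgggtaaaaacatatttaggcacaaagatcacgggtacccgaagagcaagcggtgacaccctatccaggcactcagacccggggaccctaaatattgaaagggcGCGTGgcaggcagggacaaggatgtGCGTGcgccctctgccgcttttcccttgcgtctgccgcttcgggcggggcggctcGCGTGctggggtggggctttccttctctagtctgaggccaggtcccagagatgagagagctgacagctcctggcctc
Tiparp: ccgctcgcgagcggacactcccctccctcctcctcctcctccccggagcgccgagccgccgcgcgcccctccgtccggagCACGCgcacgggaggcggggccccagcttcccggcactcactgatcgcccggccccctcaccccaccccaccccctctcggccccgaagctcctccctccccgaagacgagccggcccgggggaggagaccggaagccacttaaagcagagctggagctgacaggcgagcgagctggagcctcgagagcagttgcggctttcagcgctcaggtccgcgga

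A window was found for 7 of the 9 members, all but Ahr and Aldh3a1. The core was present on either strand in 5 of these 7 windows, those of Cyp1a1, Cyp1b1, Ahrr, Arnt and Tiparp, and in 32.4% of the 32851 windows of all genes. The single core of Cyp1a1 lay 49 bases before the start. Ahrr had 3 cores, at 102, 77 and 22 bases before the start, and was the member with the longer form TNGCGTG, which contains the core and was present in 5.07% of all windows. No core was found in the windows of Cyp1a2 and Nqo1. A match is a description of the letters in this window. Sequence outside the windows was not searched, and AhR binding was not measured.

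Cyp1a1 (ENSMUSG00000032315) lies on the plus strand of chromosome 9 of mm10, from 57687928 to 57703824, and encodes a P450 enzyme that oxidizes polycyclic aromatic compounds. In GENCODE M21 it has a pair of transcripts of 7 exons each, and one begins at 57697613, the start used for its window above, and the other at 57687928. Control mice 1 to 4 had 576, 134, 125 and 101 counts of Cyp1a1, and TTI-101-treated mice 1 to 4 had 7727, 3733, 1385 and 4366. As CPM, counts scaled to the TMM-normalized library size, these were 21.1, 8.01, 6.93 and 6.46 in control and 291, 224, 77.0 and 266 in TTI-101-treated lungs. Every treated mouse was above every control mouse, and the lowest treated value, that of mouse 3, was 3.64-fold above the highest control value, that of mouse 1.

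Control lungs averaged 10.6 ± 7.03 and treated lungs 214 ± 95.7 CPM of Cyp1a1 (SD, n = 4 each), a 20.2-fold ratio of means. Its log2 fold change, fitted by edgeR with its standard error (SE), was 4.32 (SE 0.52). The size of the increase was uneven among the treated mice, from 7.24-fold to 27.4-fold over the control mean. Within the groups, the highest mouse was 3.27-fold above the lowest in control and 3.78-fold in TTI-101-treated lungs. Among the 17138 genes with enough counts, this was the second highest log2 fold change. The single gene above it, Igkv3-4, an immunoglobulin kappa variable gene, had overlapping groups, with means of 0.540 and 12.3 CPM. The quasi-likelihood test of edgeR found 0 genes, or 0%, at an adjusted p-value under 0.05. Without adjustment, 1132 genes, or 6.61%, had a p-value under 0.05. The numbers of limma-voom were 0 and 1098 (6.41%), and DESeq2 called 4 of 31769 genes after adjustment, or 0.0126%, and 1689 before it. The groups did not overlap for 1.53% of the tested genes with TTI-101 higher and for 1.43% with TTI-101 lower, and 1 of the 7 tested members, Cyp1a1, was among the former. This was the contrast that brought the gene forward, so nothing is read from its place there.

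**Figure D1:**
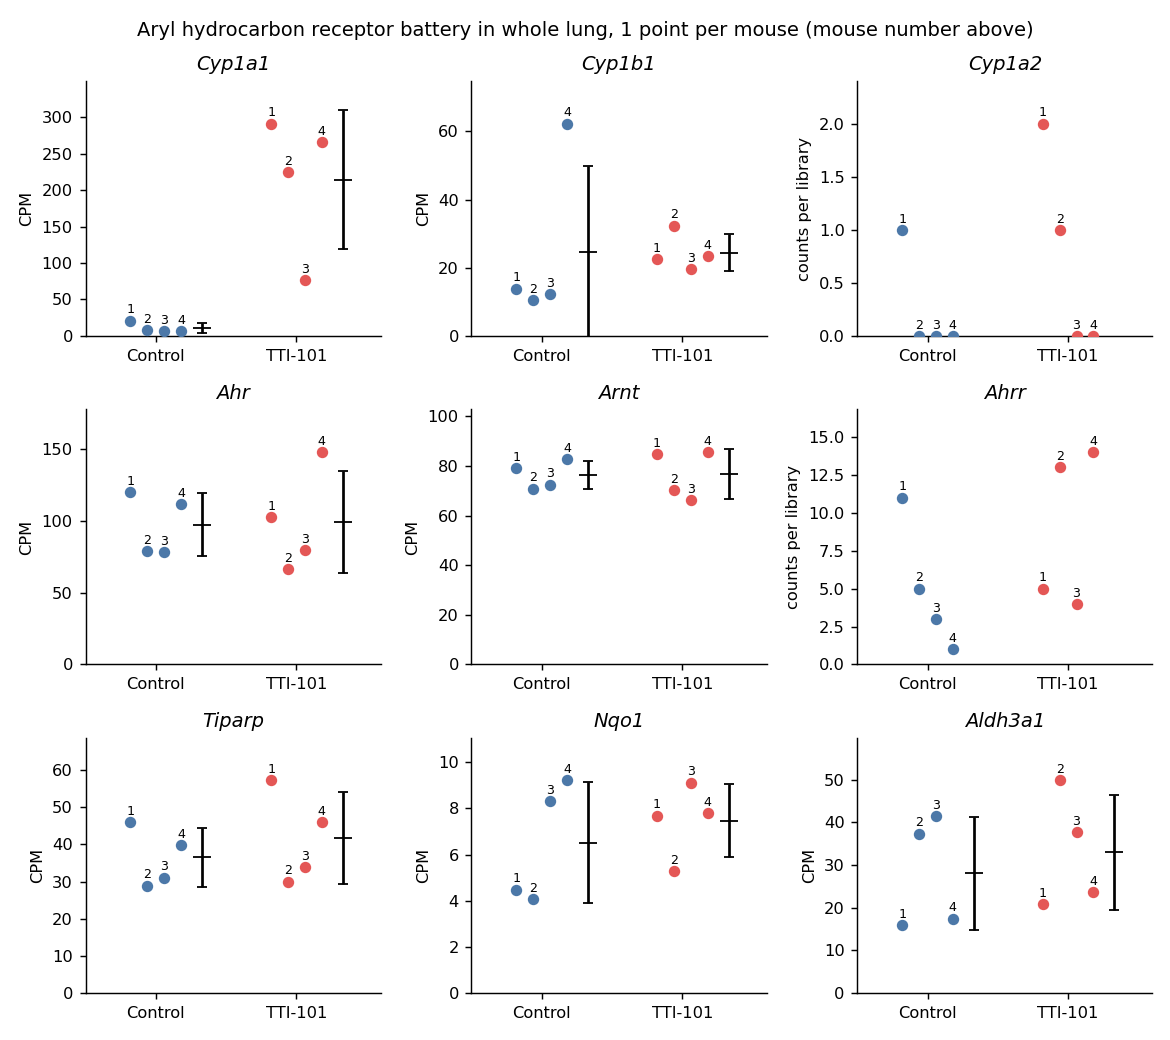
Values of the 9 members in each of the 8 mice, as CPM or, for Cyp1a2 and Ahrr, as counts per library, with the mouse number above each point and, in the CPM panels, the mean ± SD of the 4 mice at the right of each group (the lower bar of Cyp1b1 in control ends at the axis). Cyp1a1 is at 6.46 to 21.1 CPM in control and at 77.0 to 291 CPM in TTI-101-treated lungs, while the groups overlap for the other 8 genes and control mouse 4 stands apart for Cyp1b1 at 62.3 CPM.

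The study used mice of both sexes without giving the sex of each library, and Xist, the RNA that coats the inactive X chromosome, was above 400 CPM in mice 1 and 2 of each group and at most 2.11 CPM in mice 3 and 4. In the libraries with Xist, Cyp1a1 was at 8.01 and 21.1 CPM in control and at 224 and 291 CPM in TTI-101-treated lungs. In those without Xist, it was at 6.46 and 6.93 CPM in control and at 77.0 and 266 CPM in treated lungs. Since the groups do not overlap over all 8 libraries, no split of them could give another order, and these values only show the levels. With the level of Xist as a covariate, the log2 fold change was 4.44 (SE 0.42).

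Cyp1a2 (chromosome 9, 57676937 to 57683703, minus strand), which stands head to head with Cyp1a1 and is the AhR-inducible P450 of liver, was nearly absent. It had 1, 0, 0 and 0 counts in control mice 1 to 4 and 2, 1, 0 and 0 in TTI-101-treated mice 1 to 4. No library was above a floor of 3 counts, so no fold change is given, and its level was not distinguishable from 0 at this depth. Hepatocyte markers were likewise low, with a summed level of 6 genes of at most 13.1 CPM in any library.

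The genes around Cyp1a1, a set chosen after the values were seen, had far smaller differences. Within 250 kb on either side lay 22 other genes, of which 16 had enough counts. Of these, 0 were called by edgeR after adjustment, as were 0 of all 17138 tested genes, Cyp1a1 included. Their log2 fold changes ranged from -0.83 to 0.49, with a median of 0.15. Edc3, which encodes an mRNA decapping factor and begins 4.7 kb beyond the end of Cyp1a1, had a log2 fold change of 0.06 (SE 0.15, edgeR adjusted p = 0.920). Csk, the gene of a kinase that restrains Src family kinases, had the highest value of the 16, at 93.0 CPM in control and 130 CPM in treated lungs (log2 fold change 0.49, SE 0.20, edgeR adjusted p = 0.657). The groups overlapped for Csk. Of the 16, they did not for Sema7a, which encodes a semaphorin, at 0.41 (SE 0.24), beside 2.96% of all tested genes.

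**Figure D2:**
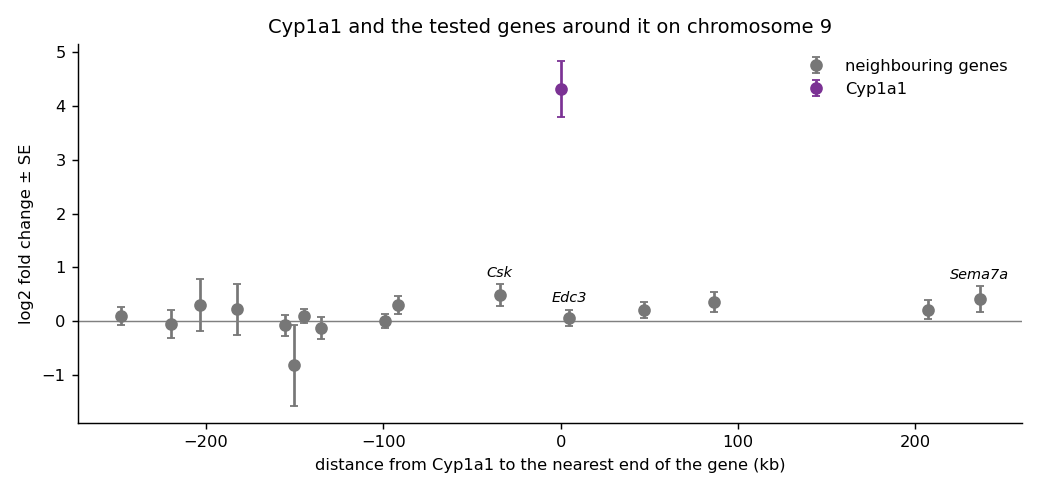
Log2 fold change of TTI-101 over control, with its standard error, of Cyp1a1 and of the 16 tested genes within 250 kb of it, against the distance in kb from Cyp1a1. Cyp1a1 is at 4.32, and the 16 neighbours lie between -0.83 and 0.49.

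Cyp1b1 (ENSMUSG00000024087, chromosome 17, 79706953 to 79715041, minus strand) is the P450 of this family that is prominent in mesenchymal tissue. Its group means were nearly equal, and this near equality rested on 1 library. Cyp1b1 was at 13.9, 10.5, 12.3 and 62.3 CPM in control mice 1 to 4 and at 22.6, 32.4, 19.5 and 23.4 CPM in TTI-101-treated mice 1 to 4. All 4 treated mice were above control mice 1 to 3 and below control mouse 4. Control lungs averaged 24.8 ± 25.1 and treated lungs 24.5 ± 5.52 CPM (SD, n = 4 each), and the log2 fold change was -0.01 (SE 0.52). Without control mouse 4 it was 1.01 (SE 0.21), and the groups then did not overlap for Cyp1b1 and Cyp1a1 among the members and for 1.85% of all tested genes, with TTI-101 higher. For Cyp1a1 the groups did not overlap with every mouse included, so leaving a mouse out could not make them overlap, and nothing is read from this. With any of the 7 mice other than control mouse 4 left out, the groups overlapped for every tested member except Cyp1a1. The share of all tested genes with higher, non-overlapping TTI-101 values was then 5.44%, 3.07% and 2.33% without control mice 1 to 3, and 2.88%, 7.04%, 2.01% and 2.86% without treated mice 1 to 4.

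Control mouse 4 stood apart in other measures too. Mitochondrial genes made up 5.56% of its counts, against 2.01% to 2.85% in the other 7 libraries. The summed level of 10 endothelial markers was 1331 CPM in this mouse, against 3131 to 3500 CPM in the other control mice and 3007 to 4894 CPM in the treated mice, and that of 6 fibroblast markers was 1154 CPM, against 1458 to 2178 CPM in the other control mice. In such bulk libraries, fewer cells of a type and less RNA per cell cannot be told apart. The part of these differences in the Cyp1b1 value was not tested.

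The receptor and its partner differed between the groups by less than the spread between mice. Ahr (ENSMUSG00000019256, chromosome 12, 35497974 to 35535038, minus strand) was at 120, 79.0, 78.3 and 112 CPM in control mice 1 to 4 and at 103, 66.3, 79.7 and 148 CPM in TTI-101-treated mice 1 to 4. Both the lowest and the highest value were in treated mice, 2 and 4. The log2 fold change was 0.03 (SE 0.25), and it ranged from -0.23 to 0.19 when each mouse was left out in turn. Arnt (ENSMUSG00000015522, chromosome 3, 95434388 to 95497240, plus strand) was at 79.2, 70.9, 72.5 and 82.9 CPM in control and at 84.8, 70.3, 66.3 and 85.6 CPM in treated mice. It was the steadiest member, with means of 76.4 ± 5.65 and 76.8 ± 9.92 CPM (SD, n = 4 each) and a log2 fold change near 0, at 0.01 (SE 0.13).

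The feedback repressors gave differences within the spread between mice or too few counts. Tiparp (ENSMUSG00000034640, chromosome 3, 65528410 to 65555518, plus strand), which encodes a mono-ADP-ribosyltransferase that modifies AhR, was at 46.1, 28.9, 31.1 and 39.8 CPM in control mice 1 to 4 and at 57.2, 30.0, 33.8 and 46.1 CPM in TTI-101-treated mice 1 to 4. The highest of the 8 values was that of treated mouse 1, which also had the highest Cyp1a1 level, and the others lay in the control range. Its log2 fold change was 0.20 (SE 0.23), and 0.17 (SE 0.12) with the replicate number fitted as a block. Ahrr (chromosome 13, 74211118 to 74292331, minus strand), the gene of a receptor-like protein that competes with AhR for ARNT, had 11, 5, 3 and 1 counts in control mice 1 to 4 and 5, 13, 4 and 14 in treated mice 1 to 4. The group sums were 20 and 36 counts, and the counts of the groups overlapped.

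Nqo1 and Aldh3a1, which encode a quinone reductase and an aldehyde dehydrogenase and are also induced by the oxidative stress factor NRF2, did not separate the groups. Nqo1 (ENSMUSG00000003849, chromosome 8, 107388225 to 107403206, minus strand) was at 4.48, 4.06, 8.32 and 9.21 CPM in control mice 1 to 4 and at 7.69, 5.28, 9.12 and 7.78 CPM in TTI-101-treated mice 1 to 4. The treated values lay inside the control range, and the log2 fold change was 0.20 (SE 0.31). Aldh3a1 (ENSMUSG00000019102, chromosome 11, 61207537 to 61218421, plus strand) was at 15.8, 37.3, 41.5 and 17.4 CPM in control and at 20.8, 49.8, 37.6 and 23.5 CPM in treated mice. Mice 2 and 3 were the highest of each group, and the log2 fold change was 0.23 (SE 0.37).

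**Figure D3:**
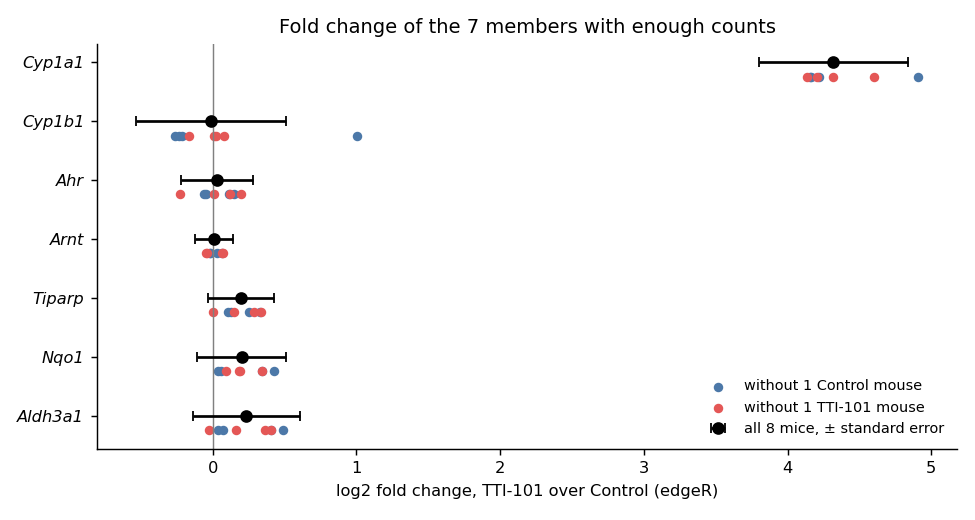
Log2 fold change of TTI-101 over control for the 7 members with enough counts, with all 8 mice (black, ± standard error) and with each mouse left out in turn (coloured by the group of that mouse). Cyp1a1 lies between 4.14 and 4.91 whichever mouse is left out, Cyp1b1 moves from -0.01 to 1.01 without control mouse 4, and the other 5 genes lie between -0.23 and 0.49.

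Levels of different genes were compared as CPM per kilobase of the gene length in the deposited file. In control lungs the order of the means was Ahr (15.8 ± 3.54 CPM per kilobase, SD, n = 4), Aldh3a1 (14.4), Arnt (9.54), Tiparp (8.37), Cyp1b1 (4.83), Nqo1 (4.20), Cyp1a1 (3.82 ± 2.52), Ahrr (0.0247) and Cyp1a2 (0.00456). Each neighbouring pair in this order overlapped in range, except that every control library had more Cyp1a1 than any had Ahrr. In TTI-101-treated lungs Cyp1a1 was the highest member at 77.0 ± 34.3 CPM per kilobase (SD, n = 4), and its lowest library, at 27.6, was above the highest of Aldh3a1, which came next at a mean of 17.0 with a highest library of 25.6. The other 8 members followed as Aldh3a1, Ahr, Arnt, Tiparp, Nqo1, Cyp1b1, Ahrr and Cyp1a2. Next to each other in this order, Aldh3a1 and Ahr, Arnt and Tiparp, Nqo1 and Cyp1b1, and Ahrr and Cyp1a2 overlapped in range, while Ahr and Arnt, Tiparp and Nqo1, and Cyp1b1 and Ahrr did not. Among all 17138 tested genes, the mean level of Cyp1a1 per length was above that of 43.4% of genes in control and of 96.8% in treated lungs.

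**Figure D4:**
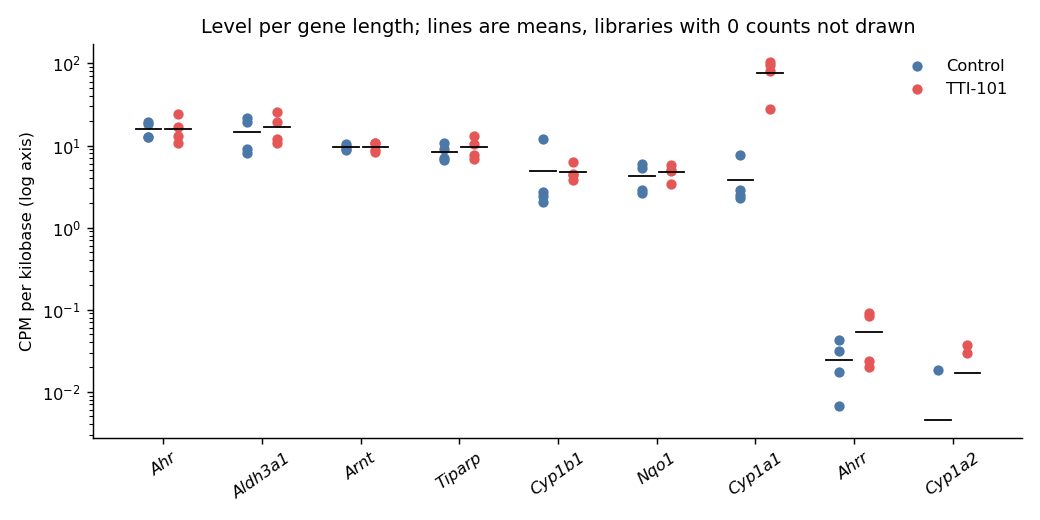
Level of the 9 members as CPM per kilobase of gene length on a log axis, with 1 point per library and a line at the mean of each group of 4 mice (libraries with 0 counts are in the mean and are not drawn). Cyp1a1 is the seventh gene in control at 3.82 and the first in TTI-101-treated lungs at 77.0 CPM per kilobase, while Cyp1a2 and Ahrr are under 0.1 in both groups.

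Of the genes of the AhR pathway and of related detoxification outside the battery, 82 in 6 lists, 69 had enough counts. With adjustment over all 17138 genes, edgeR called 0 of the 69 and 0 of all genes. By unadjusted p-values under 0.05, 1 of the 69 was higher and 9 were lower in TTI-101-treated lungs, beside 518 higher and 614 lower of all 17138 genes (6.61% in all). The groups did not overlap for 3 of the 69, or 4.35%, against 2.96% of all tested genes.

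Other genes known to respond to AhR were as often lower as higher. Of the 17 tested, 9 had positive and 8 negative log2 fold changes, with a median of 0.01 against 0.003 for all genes. Ereg, which encodes the EGFR ligand epiregulin, was at 10.1, 7.05, 6.38 and 21.4 CPM in control and at 3.50, 5.52, 1.45 and 4.32 CPM in treated mice 1 to 4. All 4 treated values were below all control values (log2 fold change -1.60, SE 0.47, edgeR adjusted p = 0.657). The most abundant genes of the list were Cd36, a fatty acid transporter, at 1061 ± 398 and 1313 ± 328 CPM (SD, n = 4 each), and Fmo2, the lung flavin monooxygenase, at 690 ± 226 and 823 ± 178 CPM (SD, n = 4 each), with overlapping groups for both. Fgf21, the gene of a secreted metabolic regulator, had 6, 1, 0 and 0 counts in control and 0, 3, 0 and 0 in treated mice 1 to 4, too few to compare.

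The 14 genes of the cytosolic AhR complex and its coactivators had a median log2 fold change of -0.11, with 5 positive and 9 negative values. At an unadjusted edgeR p-value under 0.05, 3 of the 14 were lower, as were 614 of all 17138 genes. Hsp90ab1 and Hsp90aa1, the chaperones that hold the unliganded receptor, were the most abundant. Hsp90aa1 was at 428, 644, 853 and 669 CPM in control and at 477, 376, 371 and 462 CPM in TTI-101-treated mice 1 to 4 (log2 fold change -0.62, SE 0.21, edgeR adjusted p = 0.657). Control mouse 1 was within the treated range, and the other 3 control mice were above it. Hsp90ab1 had means of 1564 ± 453 and 1198 ± 98.2 CPM (SD, n = 4 each) and overlapping groups.

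The 5 genes that supply P450 enzymes with electrons or heme all had negative log2 fold changes, with a median of -0.25. As among all tested genes, none was called by edgeR after adjustment. Por, the P450 reductase on which CYP1A1 depends, averaged 408 ± 60.4 CPM in control and 399 ± 94.9 CPM in treated lungs (SD, n = 4 each), with a log2 fold change of -0.03 (SE 0.20, edgeR adjusted p = 0.970). Cyb5a, the gene of cytochrome b5, was at 207 ± 38.1 and 173 ± 16.7 CPM (SD, n = 4 each), with overlapping groups.

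Targets of NRF2, the factor that shares Nqo1 and Aldh3a1 with AhR, had negative log2 fold changes in 16 of 17 genes, with a median of -0.27 and 0 called by edgeR after adjustment. Of all 17138 tested genes, 8469 were negative and 0 were called. At an unadjusted p-value under 0.05, 3 of the 17 were lower, as were 614 of all 17138. Summed over the list, control mice 1 to 4 were at 1964.7, 1993.3, 2488.5 and 3347.2 CPM, and treated mice at 1866.5 to 2180.9 CPM. The part of control mouse 4 in the negative values was not tested. The groups overlapped for all 17 genes. The most abundant were Gstm1 and Ephx1, a glutathione transferase and an epoxide hydrolase. Gstm1 averaged 509 ± 108 (control) and 493 ± 75.2 CPM (TTI-101, SD, n = 4 each), and Ephx1 at 222 ± 25.3 and 207 ± 22.4 CPM (SD, n = 4 each).

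The xenobiotic receptors PXR and CAR control other P450 families, and their list had 7 tested genes of 13, with a median log2 fold change of -0.02. The liver-type targets Cyp2c29, Cyp3a11 and Cyp3a25 had 0 counts in all 8 libraries. Cyp2b10, a classical CAR target that the lung expresses, averaged 209 ± 59.0 (control) and 238 ± 11.4 CPM (TTI-101, SD, n = 4 each), with overlapping groups (log2 fold change 0.19, SE 0.20, edgeR adjusted p = 0.784). Rxra, which encodes the partner of both receptors, was at 113 ± 4.21 and 111 ± 13.8 CPM (SD, n = 4 each). Cyp3a13 was the gene of this list whose groups did not overlap, at 6.42, 6.04, 6.32 and 7.68 CPM in control and 5.84, 5.16, 3.34 and 3.71 CPM in treated mice 1 to 4 (log2 fold change -0.55, SE 0.25, edgeR adjusted p = 0.657).

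Tryptophan catabolism supplies endogenous AhR ligands such as kynurenine, and 9 of its 13 genes were tested, with a median log2 fold change of 0.27. Haao, whose enzyme acts further down the kynurenine pathway, was at 7.56, 7.53, 5.77 and 2.94 CPM in control and at 11.1, 7.99, 12.0 and 11.3 CPM in TTI-101-treated mice 1 to 4. All treated values were above all control values (log2 fold change 0.83, SE 0.30, edgeR adjusted p = 0.657). Kyat1, a kynurenine aminotransferase gene and one of the most abundant of the list, was at 26.5 ± 3.96 and 25.0 ± 4.48 CPM (SD, n = 4 each).

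**Figure D5:**
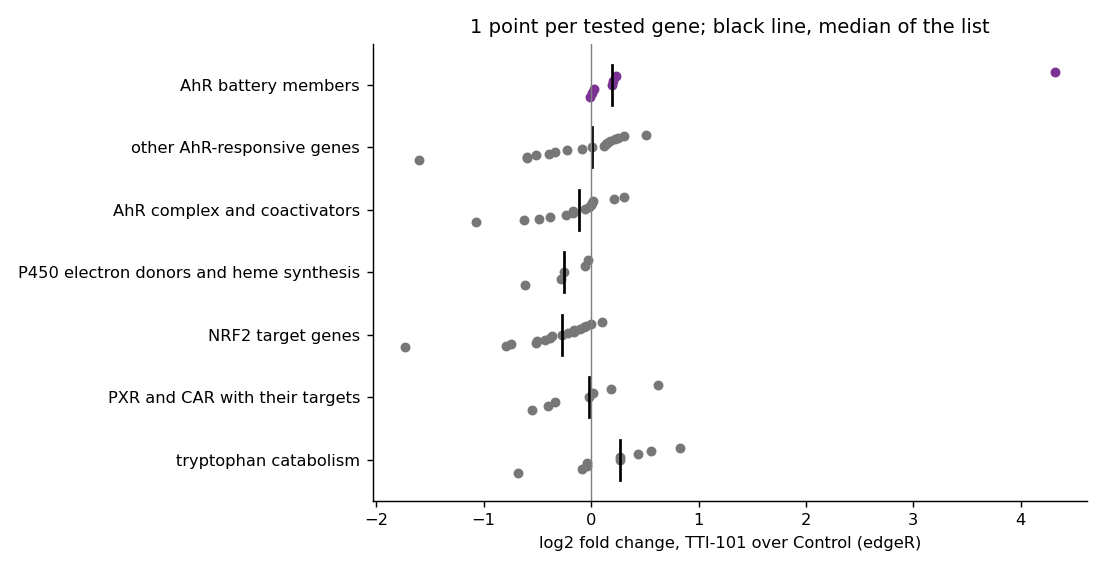
Log2 fold change of TTI-101 over control for the 7 tested members and for the 69 tested genes of 6 related lists, with 1 point per gene and a black line at the median of each list. Cyp1a1 is the only point above 1, at 4.32, and the medians of the 6 lists lie between -0.27 and 0.27.

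The genes whose profiles were most like that of Cyp1a1 were not members of the battery. Over the 8 libraries, the highest Pearson correlations of log2 CPM with Cyp1a1 among 17137 genes were those of Zcchc18 (r = 0.94), Rasal1 (0.94), 2810405F17Rik (0.94), Txnip (0.93) and Mir155hg (0.92). The members lay far below, from 0.07 for Aldh3a1 to 0.43 for Tiparp. This measure includes the group difference for which Cyp1a1 was chosen. After each group's mean was subtracted, the nearest profiles were those of Gm17275 (0.99), Gm15932 (0.95), Tshb (0.95), Zfp182 (0.95) and Sec61a2 (0.94). The values of the members then ran from -0.54 for Nqo1 to 0.60 for Tiparp. Among the 17137 genes, Tiparp ranked 983, Arnt 985 and Ahr 2103 by this measure, and Cyp1b1 10478, Aldh3a1 14766 and Nqo1 15131. These values describe 8 libraries that differ in group and depth, and between 0 and 3 of the first 5 genes and between 0 and 4 of the second 5 stayed among the first 5 when a mouse was left out.

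Markers of lung cells were abundant in both groups, with Sftpc of alveolar type 2 cells at 16673 to 40617 CPM, Scgb1a1 of club cells at 10013 to 31148 CPM and Ager of alveolar type 1 cells at 913 to 2365 CPM. Of the markers of 13 cell types, 0 were called by edgeR after adjustment, as were 0 of all 17138 tested genes. The signs of several lists ran one way, where all tested genes had 8669 positive and 8469 negative log2 fold changes. These were positive for all 10 endothelial (median 0.54), 5 B cell (1.28), 5 T cell (0.71), 6 fibroblast (0.29) and 5 tested red blood cell markers (2.50) and for 4 of 5 alveolar type 1 markers (0.39), whereas log2 fold changes were negative for 8 of 9 club cell markers (median -0.68), all 8 alveolar type 2 markers (-0.40) and all 5 ciliated cell markers (-0.76). At an unadjusted p-value under 0.05, 2 endothelial, 5 B cell and 4 red blood cell markers were higher and 3 club cell, 2 ciliated cell and 1 hepatocyte marker lower, as were 518 and 614 of all 17138 genes. Summed over the list, red blood cell markers were at 58.5 to 264 CPM (control) and 205 to 1587 CPM (TTI-101), and club cell markers at 16757 to 41559 and 14519 to 27707 CPM. In these sums control mouse 4 was the lowest control for endothelial, B cell, T cell, fibroblast and alveolar type 1 markers. It was the highest control for club, alveolar type 2, ciliated and red blood cell markers. Its alveolar type 2 sum was 74200 CPM, against 41730 to 49544 CPM in the other control mice and 32690 to 59233 CPM in treated mice. The part of this mouse in the signs was not tested.

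The level of Cyp1a1 was also expressed relative to the summed markers, as a description. Per 1000 CPM of the summed endothelial markers, Cyp1a1 was at 2.21 to 6.37 CPM in control and at 15.7 to 74.5 CPM in TTI-101-treated lungs. Per 1000 CPM of red blood cell markers it was at 24.5 to 169 and at 178 to 1092 CPM, where the ranges of the groups came closest among the 13 lists, and per 1000 CPM of club cell markers at 0.155 to 1.26 and at 3.95 to 18.3 CPM. These ratios use the Cyp1a1 values for which the gene was chosen, and the part of cell makeup in them was not tested.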

How the data were processed

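RNA-seq was performed on lungs from 8 CC-LR mice, 4 per group and 1 library per mouse. The sequencing provider prepared stranded poly(A) libraries and ran its own pipeline. The submitters' processing notes name STAR, DESeq2 and mm10, and the counting tool, its strand setting and the annotation are not given in the sources used here. The authors deposited whole-number counts per Ensembl gene, with no normalization, and a gene length. Of the 9 members, 8 have the coordinates of GENCODE M21. Ahr, Arnt and Tiparp overlap another annotated gene, whose reads could not be told apart from theirs where counting ignored strand.

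In R 4.3.3, edgeR 4.0.16 kept 17138 of 54532 genes (filterByExpr, minimum count 10), scaled libraries by TMM and compared the groups by robust quasi-likelihood F-tests with Benjamini-Hochberg adjustment over all genes kept. Standard errors are the log2 fold change over the square root of F. Correlations used log2 CPM with a prior count of 2. DESeq2 1.42.0, limma-voom (limma 3.58.1), other scalings and filters, a replicate block, Xist as a covariate and each mouse left out were alternatives. The fits were tested on simulated data. The members and the gene lists were chosen with earlier results of these data known. Named genes were all members and, from each pathway list, called genes, genes whose groups did not overlap and the 2 most abundant per length, with Fgf21, Cyp2c29, Cyp3a11, Cyp3a25 and the neighbours of Cyp1a1 added after their values were seen. Promoter windows are from RefSeq (GRCm38.p6).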

Additional observations from a re-analysis of the deposited data

Results flagged for a closer look

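Dixon's ratio, the distance from an extreme mouse to the next one as a share of the range of its group of 4, was computed for the 7 tested members and 19 gene lists. Its 95% critical value was exceeded in 5 of 52 groups, where chance gives 2.6. Control mouse 4 was apart for Cyp1b1, at 5.96 on the log2 CPM scale against at most 3.81 in the other control mice (gap 0.844 of the range). The same mouse was the lowest control for the mean log2 CPM of endothelial markers, at 6.76 against 7.96 (gap 0.898), and of alveolar type 1 markers, at 7.56 against 8.42 (gap 0.981). TTI-101-treated mouse 2 was the highest treated mouse for ciliated cell markers, at 6.73 against 5.72 (gap 0.983), and for hepatocyte markers, at 0.789 against 0.204 (gap 0.894), a list of which 2 genes were tested. No gap of Cyp1a1 was over the critical value in either group.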

How the results depend on the processing

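Over 16 alternatives, the log2 fold change of Cyp1a1 ranged from 4.14 to 4.91, and those of Ahr, Arnt, Tiparp, Nqo1 and Aldh3a1 moved by less than the spread between mice. Cyp1b1 ranged from -0.26 to 1.01 with a mouse left out, reaching 1.01 without control mouse 4. With all 8 mice it was 0.43 (SE 0.45) by limma-voom and 0.42 (SE 0.47) with the replicate block, against -0.01 in the main fit. None of the 6 pathway lists had a called gene under any alternative, where at most 4 genes were called over all genes, so little can be read from this. Over all genes, 0 were called by edgeR, 4 by DESeq2's Wald test (Cyp1a1, Dlk1, Gkn2 and C2cd4b) and 1, Cyp1a1, with Xist as a covariate. With a mouse left out the number was 0 to 1, and the 1 gene, without control mouse 1 or without TTI-101-treated mouse 3, was again Cyp1a1. These counts repeat the contrast from which the gene was chosen. The rank of Cyp1a1 by level among the 9 members in control lungs was 7 per length, 6 by CPM without gene length, and 5 to 7 with a mouse left out. Whether the replicate numbers pair the mice is not settled. Deviations of same-numbered mice correlated at 0.07 to 0.39 and those of differently numbered mice at -0.42 to 0.17. Of 8 libraries, 4 correlated best with their own number. Xist was high in mice 1 and 2 of both groups. With the replicate block, 0 genes were called and the log2 fold change of Cyp1a1 was 4.34 (SE 0.35, against 0.52 without the block). The standard errors of the other tested members were smaller with the block too. Depth limits Cyp1a2 and Ahrr, with at most 2 and 14 counts per library.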
